A study of Mus musculus with 12 samples.

Results

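The genes of glycolysis and of glucose, lactate and pyruvate transport were followed in RNA-seq of mouse OT-1 CD8+ T cells. The list held 37 symbols, from the glucose transporters through each enzyme step to lactate export and pyruvate entry into mitochondria, with regulators of these steps. A row of the count tables belonged to it when its gene identifier carried a listed symbol in GENCODE mouse release M21 (GRCm38), which gave 38 of 55487 identifiers because Aldoa has 2 of them. OT-1 is a mouse line whose CD8 T cells carry a transgenic receptor for an ovalbumin peptide. There were 12 samples, 3 in each of 4 groups. The Female and Male groups were OT-1 CD8+ T cells taken from the spleens of mice of each sex and activated with beads carrying antibodies to CD3 and CD28, together with recombinant mouse IL2, over 3 days. The WT and KD groups came from male CD8+ T cells, electroporated and kept in culture for 3 days, also with IL2. Their counts are in a table of their own, and they are called the second or knockdown batch below. No label names a batch. Into KD cells went Cas9 and a guide RNA for Kdm5d, the Y-linked gene of a histone H3K4 demethylase, and into WT cells the guide RNA with no Cas9, so that the loss of Kdm5d and the presence of Cas9 cannot be told apart. Whether the WT and KD cells were activated like the Female and Male cells, the age of the mice, the number of mice behind the samples and the share of cells edited are not given in the sources used here. No label says that replicates came from separate mice, so the p-values below measure the spread between these samples, which may be technical.

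Glycolysis splits a molecule of glucose into pyruvate in the cytosol, and yields ATP and NADH on the way. Pyruvate is then either reduced to lactate by lactate dehydrogenase, which restores NAD+, or carried into mitochondria by the MPC complex and oxidised by pyruvate dehydrogenase. Activated T cells raise glucose uptake and turn much of the glucose into lactate even where oxygen is present, and hypoxia-inducible factor (HIF) and MYC are known to raise the transcription of many of these genes.

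Total counts per sample ranged from 78748647 to 110803318. Kdm5d was at 48.4, 51.9 and 52.4 CPM (library-size-normalised read counts, CPM, scaled with edgeR's TMM factors) in WT and 21.4, 21.8 and 22.9 CPM in KD, with -1.21 (SE 0.045, edgeR adjusted p = 3.13e-08) as its log2 fold change, and it held 0 to 2 counts in each Female library. In Male, Kdm5d was at 50.9, 49.5 and 52.2 CPM. All 9 listed CD8 T cell markers were present, at a summed 2525 to 2974 CPM per library. The summed markers of NK, dendritic, macrophage, granulocyte, erythroid and stromal cells stayed at or below 4.09 CPM for each list, with the globins Hba-a1 and Hbb-bs at or near 0. Of 3 CD4 T cell markers Cd4 was at or near 0, and the list summed to 87.2 to 89.6 CPM in Female, 53.9 to 57.3 in Male, 43.3 to 45.9 in WT and 39.9 to 42.6 in KD, mostly from Zbtb7b. Macrophage markers summed to 0.951 to 1.65 CPM in WT and 2.08 to 3.13 CPM in KD. Most of that difference was Mpeg1, at a mean of 0.670 CPM in WT and 1.77 in KD. Csf1r was at 0.405 and 0.415 CPM, and Lyz2 was lower in KD. The part of these markers in the results was not tested. In bulk RNA, fewer cells that express a gene and less RNA of it per cell cannot be told apart.

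Most genes of the pathway were higher in Male than in Female. All 38 identifiers had enough counts to be tested, and 32 passed an adjusted p of 0.05 in edgeR's quasi-likelihood test, 23 of them higher in Male and 9 lower. Of all 20208 genes tested in that comparison 49.8% passed, 23.5% higher and 26.3% lower, so that the share of members called is to be read against a large background. The median log2 fold change of the members was 0.37, beside 0.011 over all genes tested. The values of the groups did not overlap for 33 members, and for 58.3% of all genes. A call and a difference of at least 1 on the log2 scale, in either direction, was reached by 11 members, 7 higher and 4 lower, and by 7.28% of all genes.

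The knockdown cells differed from their controls in the same set with a smaller median. In KD against WT 27 of the 38 identifiers passed, 21 higher in KD and 6 lower, where 35.1% of 20413 genes passed, 16.8% higher and 18.4% lower. The median of the members was 0.20 on the log2 scale, beside 0.012 over all genes. Groups did not overlap for 31 members and for 46.8% of all genes. Ldhb alone was called and differed by at least 1 on the log2 scale, which 3.96% of all genes had. The comparisons share no sample. Kdm5d itself was higher in Male than in Female but lower in KD than in WT. A member higher in both comparisons thus went with Kdm5d in the first and against it in the second. By role, 15 of the 22 enzyme identifiers were higher and 4 lower in Male, and 15 were higher and 1 was lower in KD. Of the 6 transporters, 4 were higher in Male, while in KD 2 were higher and 2 lower. The 10 regulators divided into 4 higher and 5 lower in Male, and 4 higher and 3 lower in KD.

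**Figure D1:**
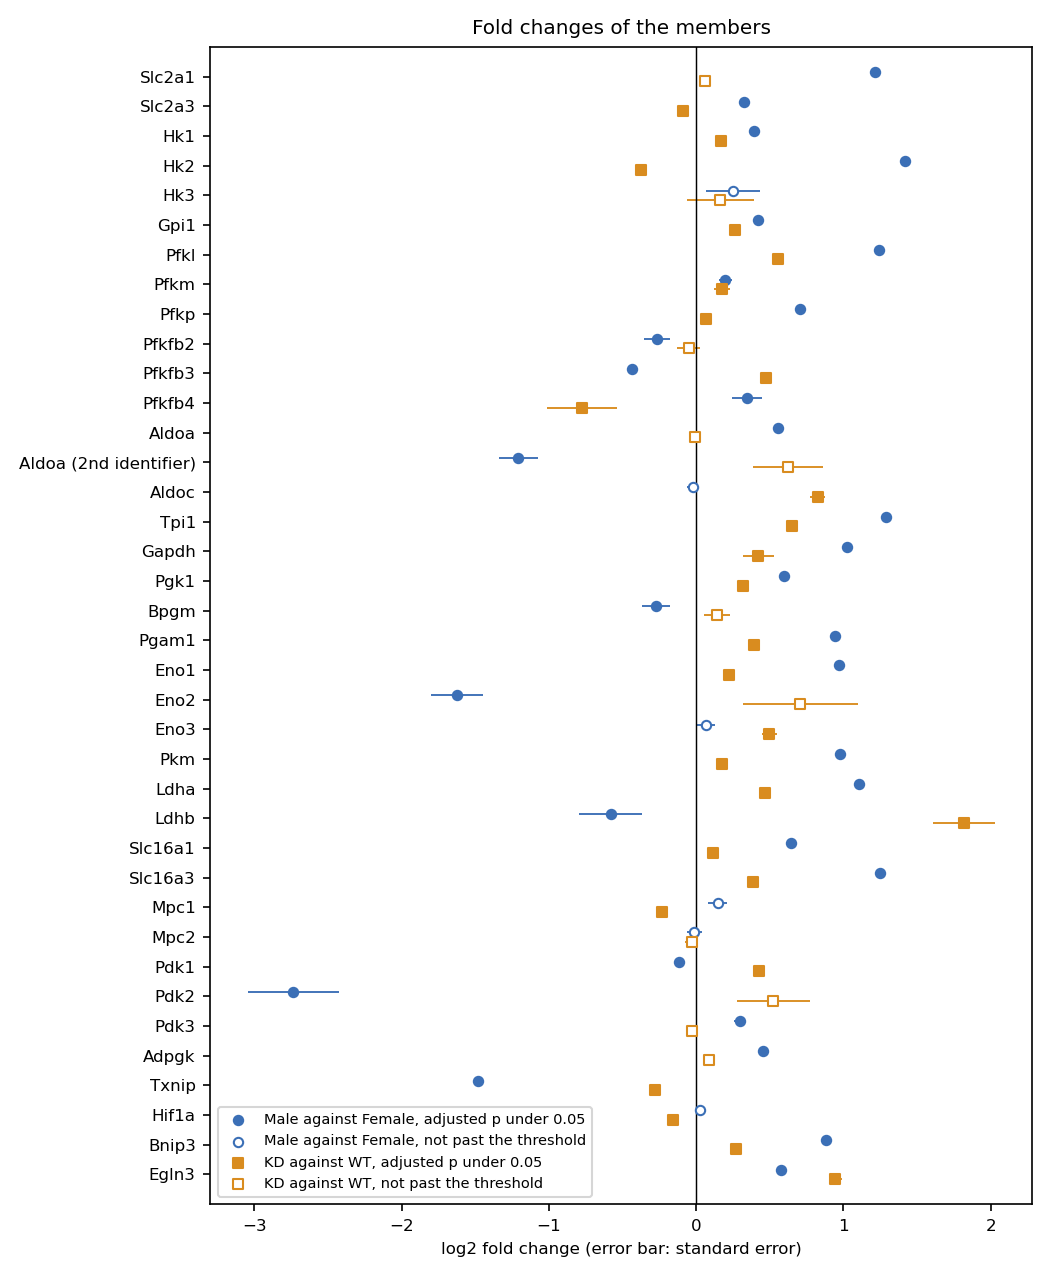
Log2 fold change of each of the 38 identifiers (points, with the standard error as bars) in Male against Female and in KD against WT, ordered along the pathway; filled points passed an adjusted p of 0.05 and open points did not. The enzyme points lie mostly to the right of 0 in both comparisons, while Hk2, Slc2a3 and Pfkfb4 change side to the left in KD against WT and Txnip lies to the left in both.

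The plot of log2 fold changes orders the members from uptake to lactate and pyruvate transport, followed by the PDK genes, Adpgk, Txnip, Hif1a, Bnip3 and Egln3. Members with calls in the 2 comparisons were 16 higher in both, 1 lower in both (Txnip), 3 up in Male but down in KD (Hk2, Slc2a3 and Pfkfb4), and 3 lower in Male and higher in KD (Pfkfb3, Pdk1 and Ldhb). A further 13 passed in 1 comparison only, and Hk3 and Mpc2 passed in neither.

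The promoters of 4 members are shown here for the DNA that lies upstream of genes with different patterns: Ldha and Egln3 (higher in both comparisons), Hk2 (opposite directions) and Txnip (lower in both). Each is the 250 bases before a RefSeq transcription start in GRCm38.p6, printed 5′ to 3′ on the strand of the gene. Capitals mark the core letters of the HIF binding motif, ACGTG or GCGTG, on either strand (CACGT or CACGC where the match is on the other strand); the E-box CACGTG, which MYC and MondoA can bind, overlaps ACGTG. Positions are chr7:46845554-46845803 on the plus strand for Ldha, chr6:82774455-82774704 on the minus strand for Hk2, chr12:54203875-54204124 on the minus strand for Egln3 and chr3:96557707-96557956 on the plus strand for Txnip.
Ldha: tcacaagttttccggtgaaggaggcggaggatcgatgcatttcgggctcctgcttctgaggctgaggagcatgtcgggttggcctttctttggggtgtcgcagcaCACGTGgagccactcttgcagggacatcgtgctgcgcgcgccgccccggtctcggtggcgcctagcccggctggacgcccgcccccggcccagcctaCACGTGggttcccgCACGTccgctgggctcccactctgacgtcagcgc
Egln3: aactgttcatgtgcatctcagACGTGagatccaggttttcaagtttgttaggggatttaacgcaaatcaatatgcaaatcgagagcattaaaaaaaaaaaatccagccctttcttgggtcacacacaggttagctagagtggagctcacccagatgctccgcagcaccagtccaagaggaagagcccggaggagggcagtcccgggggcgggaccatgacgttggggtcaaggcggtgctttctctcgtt
Hk2: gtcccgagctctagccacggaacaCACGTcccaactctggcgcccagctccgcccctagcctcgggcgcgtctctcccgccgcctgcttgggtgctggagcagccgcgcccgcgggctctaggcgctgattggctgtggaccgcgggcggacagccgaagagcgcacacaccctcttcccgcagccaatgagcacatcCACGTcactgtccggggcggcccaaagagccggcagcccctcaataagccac
Txnip: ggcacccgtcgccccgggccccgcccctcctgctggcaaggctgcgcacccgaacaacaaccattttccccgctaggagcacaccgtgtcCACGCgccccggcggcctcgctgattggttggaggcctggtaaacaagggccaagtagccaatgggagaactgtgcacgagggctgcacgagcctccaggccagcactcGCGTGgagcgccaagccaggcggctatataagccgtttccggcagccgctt
Ldha's stretch holds 5 core matches, Hk2's 2, Txnip's 2 and Egln3's 1. An E-box counts as 2 matches, 1 on each strand, so Ldha's 5 lie in 3 capital runs, 2 of them E-boxes. RefSeq gives Ldha a second start, whose 250 bases (chr7:46846832-46847081) hold 1 match. Over 36 of the 37 symbols, RefSeq gave 53 windows of 300 bases (250 before and 50 after a start), and 79.2% of them held ACGTG or GCGTG, beside 43.8% of 32851 windows of all genes. Windows of the same gene can overlap, as some of Aldoa's and Eno1's did. Counted by gene, 88.9% of 36 members held ACGTG or GCGTG, beside 46.7% of 27025 genes. The members' windows were richer in G and C, with a median of 62.3% beside 52.7%. Within windows of 60 to 70% GC the shares were 92% of 25 member windows and 68% of 6703. For ACGTG alone they were 64% and 27.3%, for GCGTG alone 60% and 56.9%, and for CACGTG 20% and 11.1%. A match is a description of the letters and not a binding site.

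Glucose enters these cells through 2 listed transporters, which were both higher in Male but did not move together in KD. Slc2a1 (GLUT1, chr4:119108711-119137983), the transporter that activated T cells raise, was at 60.2, 59.8 and 57.4 CPM in Female and 136, 139 and 136 CPM in Male. That is a 2.32-fold higher level in Male with no overlap (log2 fold change 1.21, SE 0.027, edgeR adjusted p = 2.54e-10). In the electroporated cells Slc2a1 was at 174, 173 and 174 CPM in WT and 181, 185 and 177 CPM in KD. Those groups did not overlap but the difference of 0.057 (SE 0.023, edgeR adjusted p = 0.0873) missed the threshold, and it passed with upper-quartile factors, with only genes of mean CPM of at least 1 and with protein-coding genes only (highest adjusted p 0.0412). Slc2a3 (GLUT3, chr6:122727809-122801640), a transporter of high glucose affinity, was at 133, 138 and 140.1 CPM in Female and 169.6, 173 and 173 CPM in Male (log2 fold change 0.32, SE 0.026, edgeR adjusted p = 2.01e-06). The sign turned in the knockdown batch, where Slc2a3 was at 128, 126 and 127 CPM in WT and 119, 120.3 and 119 CPM in KD (log2 fold change -0.091, SE 0.023, edgeR adjusted p = 0.0113). All 3 KD libraries lay below all 3 WT libraries, and with upper-quartile factors the call was lost (adjusted p 0.0681).

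Hexokinase phosphorylates glucose and so holds it in the cell. Hk2 (chr6:82725025-82774454), the inducible form, stood at 54.6, 59.7 and 58.01 CPM in Female and 153, 151 and 157 CPM in Male. It was 2.68-fold higher in Male (log2 fold change 1.42, SE 0.034, edgeR adjusted p = 4.35e-10), the largest log2 fold change upwards among the members. After electroporation its values were 251, 246 and 247 CPM in WT and 191, 193 and 189 CPM in KD. Every KD library was below every WT library (log2 fold change -0.38, SE 0.020, edgeR adjusted p = 3.06e-07), the opposite of its direction in Male. Hk1, the constitutive form, was at 151, 161 and 151 CPM in Female and 203, 196 and 207 CPM in Male (log2 fold change 0.39, SE 0.032, edgeR adjusted p = 3.04e-06). Its values in the second batch were 229, 234 and 233 CPM in WT and 260.1, 258 and 265 CPM in KD (log2 fold change 0.17, SE 0.020, edgeR adjusted p = 1.03e-04), so Hk1 was higher in both. Hk3, a form of myeloid cells, was at 1.94, 1.62 and 1.46 CPM in Female and 2.35, 1.901 and 1.696 CPM in Male (log2 fold change 0.25, SE 0.18, edgeR adjusted p = 0.292). In the knockdown batch Hk3 was at 1.84, 1.56 and 1.27 CPM in WT and 2.23, 1.27 and 1.75 CPM in KD (log2 fold change 0.16, SE 0.23, edgeR adjusted p = 0.641). Hk3 overlapped between groups in both comparisons, at levels near 2 CPM.

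Adpgk, a glucokinase of the endoplasmic reticulum that uses ADP in place of ATP, was at 60.5, 58.3 and 59.3 CPM in Female and 78.5, 81.4 and 83.98 CPM in Male (log2 fold change 0.45, SE 0.031, edgeR adjusted p = 6.65e-07). In the second batch it was at 63.5, 65.6 and 63.98 CPM in WT and 66.8, 68.6 and 69.9 CPM in KD (log2 fold change 0.089, SE 0.031, edgeR adjusted p = 0.0505). The KD difference sits at the threshold: it passed without KD replicate 1 (adjusted p 0.0463) and under 7 of 11 other settings.

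Gpi1 and the phosphofructokinases carry the sugar phosphate to the first committed step. Gpi1, the glucose phosphate isomerase, was at 482, 498 and 486 CPM in Female and 654, 658 and 651 CPM in Male (log2 fold change 0.42, SE 0.018, edgeR adjusted p = 1.95e-08). After electroporation it was at 673, 670.1 and 667 CPM in WT and 794, 828 and 797 CPM in KD (log2 fold change 0.27, SE 0.019, edgeR adjusted p = 2.22e-06). Gpi1 was thus higher by 33.9% in Male and 20.3% in KD, with no overlap. Pfkl, the liver type of phosphofructokinase, was at 63.2, 63.6 and 64.5 CPM in Female and 150.3, 152 and 149.6 CPM in Male (log2 fold change 1.24, SE 0.023, edgeR adjusted p = 7.46e-11). Its KD values were again all above WT, at 162, 162 and 164 CPM in WT and 242, 239.7 and 236 CPM in KD (log2 fold change 0.56, SE 0.021, edgeR adjusted p = 3.13e-08). Pfkl had the largest change of the 3 phosphofructokinase genes in both comparisons. Pfkp, the platelet type, was at 445, 433 and 439.6 CPM in Female and 716, 708 and 723 CPM in Male (log2 fold change 0.70, SE 0.017, edgeR adjusted p = 4.79e-10). In the electroporated cells Pfkp was at 475, 472 and 479 CPM in WT and 500.2, 491 and 504 CPM in KD (log2 fold change 0.069, SE 0.017, edgeR adjusted p = 0.0106), a difference of 4.89%. Pfkp thus passed in both, by a large amount in Male and a small one in KD. Pfkm, the muscle type, was at 25.2, 27.8 and 27.1 CPM in Female and 30.1, 30.7 and 31.01 CPM in Male (log2 fold change 0.20, SE 0.044, edgeR adjusted p = 0.00373). Its values of 18.3, 18.9 and 17.9 CPM in WT and 19.9, 20.03 and 22.4 CPM in KD differed by 0.18 (SE 0.056, edgeR adjusted p = 0.0315). That call was lost without WT replicate 1, WT replicate 3 or KD replicate 3 (adjusted p up to 0.106) and with no filter on low counts (0.0609).

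Aldolase and triose phosphate isomerase make the 3-carbon sugars. Aldoa (chr7:126795234-126800751), the main aldolase of these cells, was at 1162, 1138 and 1139.6 CPM in Female and 1695, 1683 and 1675 CPM in Male (log2 fold change 0.56, SE 0.013, edgeR adjusted p = 3.71e-10). After electroporation it was at 1475, 1475 and 1470.4 CPM in WT and 1446, 1515 and 1439 CPM in KD (log2 fold change -0.0064, SE 0.019, edgeR adjusted p = 0.841). Aldoa was thus 1.47-fold higher in Male, while its KD values lay on either side of WT. Without KD replicate 2, the highest KD library, Aldoa passed as lower in KD, at -0.032 (edgeR adjusted p = 0.0461). The second Aldoa identifier (chr7:126800790-126809108), a separate annotated gene just upstream on the same strand, was at 3.94, 3.75 and 3.51 CPM in Female and 1.604, 1.74 and 1.504 CPM in Male (log2 fold change -1.21, SE 0.13, edgeR adjusted p = 2.39e-05). It went against Aldoa, at a level far below it, and was at 0.585, 0.768 and 0.937 CPM in WT and 0.938, 1.299 and 1.27 CPM in KD (log2 fold change 0.62, SE 0.24, edgeR adjusted p = 0.0687). Its KD difference passed without WT replicate 3 or without KD replicate 1. Aldoc, the brain type, was at 25.5, 24.8 and 25.1 CPM in Female and 24.3, 24.6 and 25.4 CPM in Male (log2 fold change -0.022, SE 0.039, edgeR adjusted p = 0.688). In contrast to Aldoa, Aldoc was higher in KD without overlap, at 11.8, 11.1 and 10.98 CPM in WT and 20.3, 20.5 and 19.3 CPM in KD (log2 fold change 0.83, SE 0.053, edgeR adjusted p = 1.26e-06), and overlapped between the sexes. Tpi1, the triose phosphate isomerase, was at 224, 228 and 227 CPM in Female and 561, 557 and 546 CPM in Male (log2 fold change 1.29, SE 0.019, edgeR adjusted p = 1.63e-11). In the knockdown batch it was at 527, 539 and 538 CPM in WT and 835, 859 and 823 CPM in KD (log2 fold change 0.65, SE 0.020, edgeR adjusted p = 7.25e-09). Of all members Tpi1 had the smallest p in KD against WT, with KD 1.57-fold above WT.

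Gapdh, the dehydrogenase that makes NADH, is the member with the most related loci in the annotation. The gene itself (chr6:125161715-125166467) was at 44.5, 44.4 and 45.2 CPM in Female and 89.04, 95.6 and 88.8 CPM in Male (log2 fold change 1.03, SE 0.033, edgeR adjusted p = 3.01e-09). In the second batch its counts were at 108, 109 and 107 CPM in WT and 129, 178 and 127 CPM in KD (log2 fold change 0.42, SE 0.11, edgeR adjusted p = 0.0108). KD replicate 2 stood apart from its group, and without it the log2 fold change was 0.24 (edgeR adjusted p = 5.22e-05). The annotation holds 43 related loci, 40 of them processed pseudogenes, in which over 50% of a locus's subsequences of 31 bases also occur in Gapdh. Together these loci held 1268 CPM in Female, 2077 in Male, 2017 in WT and 2259 in KD, so Gapdh's own row took 3.38% to 7.21% of the family's counts. One of them, Gapdh-ps15, lies on the Y chromosome and had 44.9 CPM in Female, where Kdm5d had 0 to 2 counts. Gm7336 took 18.4%, 18.3%, 18.1% and 18.02% of the family in the 4 groups, in the order above. With all related loci added to Gapdh the log2 fold change was 0.73 (SE 0.014, edgeR adjusted p = 1.03e-10) in Male and 0.18 (SE 0.017, edgeR adjusted p = 2.19e-05) in KD. The direction held, and the sizes were smaller than from Gapdh's own row by over 1.5 times in KD.

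**Figure D2:**
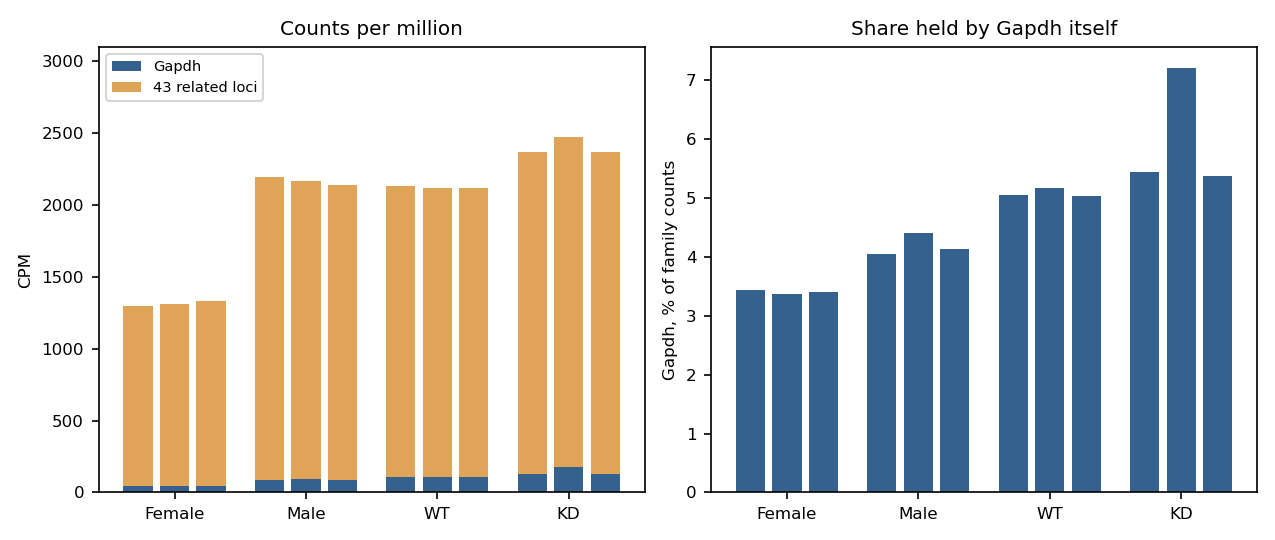
CPM of Gapdh's own row and of its 43 related loci summed, per library in the 4 groups. The related loci hold most of the counts in all 12 libraries, and KD replicate 2 has the highest value of Gapdh's own row.

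In the plot of the Gapdh family Female was lowest and KD highest both for Gapdh's own row and for the related loci. Female and Male were scaled apart from WT and KD, so levels across those tables were not tested.

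Pgk1, Pgam1 and Eno1 carry the lower part of the pathway. Pgk1 (chrX:106187100-106203699), the X-linked kinase of the first ATP-forming step, was at 615, 598 and 604 CPM in Female and 920.1, 924 and 898 CPM in Male (log2 fold change 0.59, SE 0.018, edgeR adjusted p = 1.72e-09). After electroporation it was at 746, 726 and 723 CPM in WT and 901, 924 and 911 CPM in KD (log2 fold change 0.32, SE 0.017, edgeR adjusted p = 4.19e-07). Pgk1 was higher by 50.9% in Male and 24.6% in KD. Pgam1, the mutase, was at 144, 148 and 139 CPM in Female and 278, 273 and 278 CPM in Male (log2 fold change 0.94, SE 0.026, edgeR adjusted p = 1.15e-09). In the electroporated cells Pgam1 was at 387, 387 and 387 CPM in WT and 501, 504 and 516 CPM in KD (log2 fold change 0.39, SE 0.018, edgeR adjusted p = 1.15e-07), again with no overlap. Eno1, the main enolase, was at 962, 992 and 979.8 CPM in Female and 1918, 1925 and 1900.4 CPM in Male (log2 fold change 0.97, SE 0.014, edgeR adjusted p = 1.86e-11). Its values of 2129.6, 2165 and 2142 CPM in WT and 2437, 2593 and 2466 CPM in KD differed by 0.22 (SE 0.021, edgeR adjusted p = 2.03e-05) on the log2 scale. Eno1 had the most counts of any member in Male, WT and KD. Related loci held 8.54% to 8.92% of Pgk1's own CPM, 9.84% to 10.1% of Pgam1's and 15.4% to 17.02% of Eno1's across the 4 groups, and with them added the log2 fold changes were 0.60, 0.94 and 0.97 in Male and 0.32, 0.39 and 0.22 in KD.

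Pyruvate kinase and lactate dehydrogenase end the cytosolic pathway. Pkm (chr9:59656368-59679375), whose splice forms are pyruvate kinases M1 and M2 (not separated in gene counts), was at 859, 869.8 and 870.3 CPM in Female and 1721, 1697 and 1697 CPM in Male (log2 fold change 0.98, SE 0.013, edgeR adjusted p = 1.11e-11). After electroporation Pkm was at 1697, 1711 and 1716 CPM in WT and 1900.2, 1994 and 1883 CPM in KD (log2 fold change 0.17, SE 0.020, edgeR adjusted p = 7.93e-05). Pkm was thus 1.97-fold higher in Male and 12.7% higher in KD. Ldha, the subunit that favours lactate formation, was at 666, 654 and 649 CPM in Female and 1424, 1416 and 1405 CPM in Male (log2 fold change 1.11, SE 0.015, edgeR adjusted p = 1.11e-11). In the knockdown batch it was at 1404, 1396 and 1399 CPM in WT and 1919, 1976 and 1916 CPM in KD (log2 fold change 0.47, SE 0.015, edgeR adjusted p = 9.03e-09). The Ldha groups were far apart relative to their spread in both comparisons. Ldhb, the subunit that favours pyruvate, was near 1 to 4 CPM throughout, at 2.35, 2.06 and 1.76 CPM in Female and 1.01, 1.71 and 1.41 CPM in Male (log2 fold change -0.58, SE 0.21, edgeR adjusted p = 0.0458). That call was lost in 4 of 6 fits that left out a library (all but those without Female replicate 3 and Male replicate 2; adjusted p up to 0.1396). In KD it was higher, at 1.38, 0.8095 and 0.886 CPM in WT and 3.45, 4.08 and 3.35 CPM in KD (log2 fold change 1.82, SE 0.21, edgeR adjusted p = 7.58e-05), the largest change of any member there, at 2.31 CPM per kb of exon in KD beside 585 of Ldha.

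**Figure D3:**
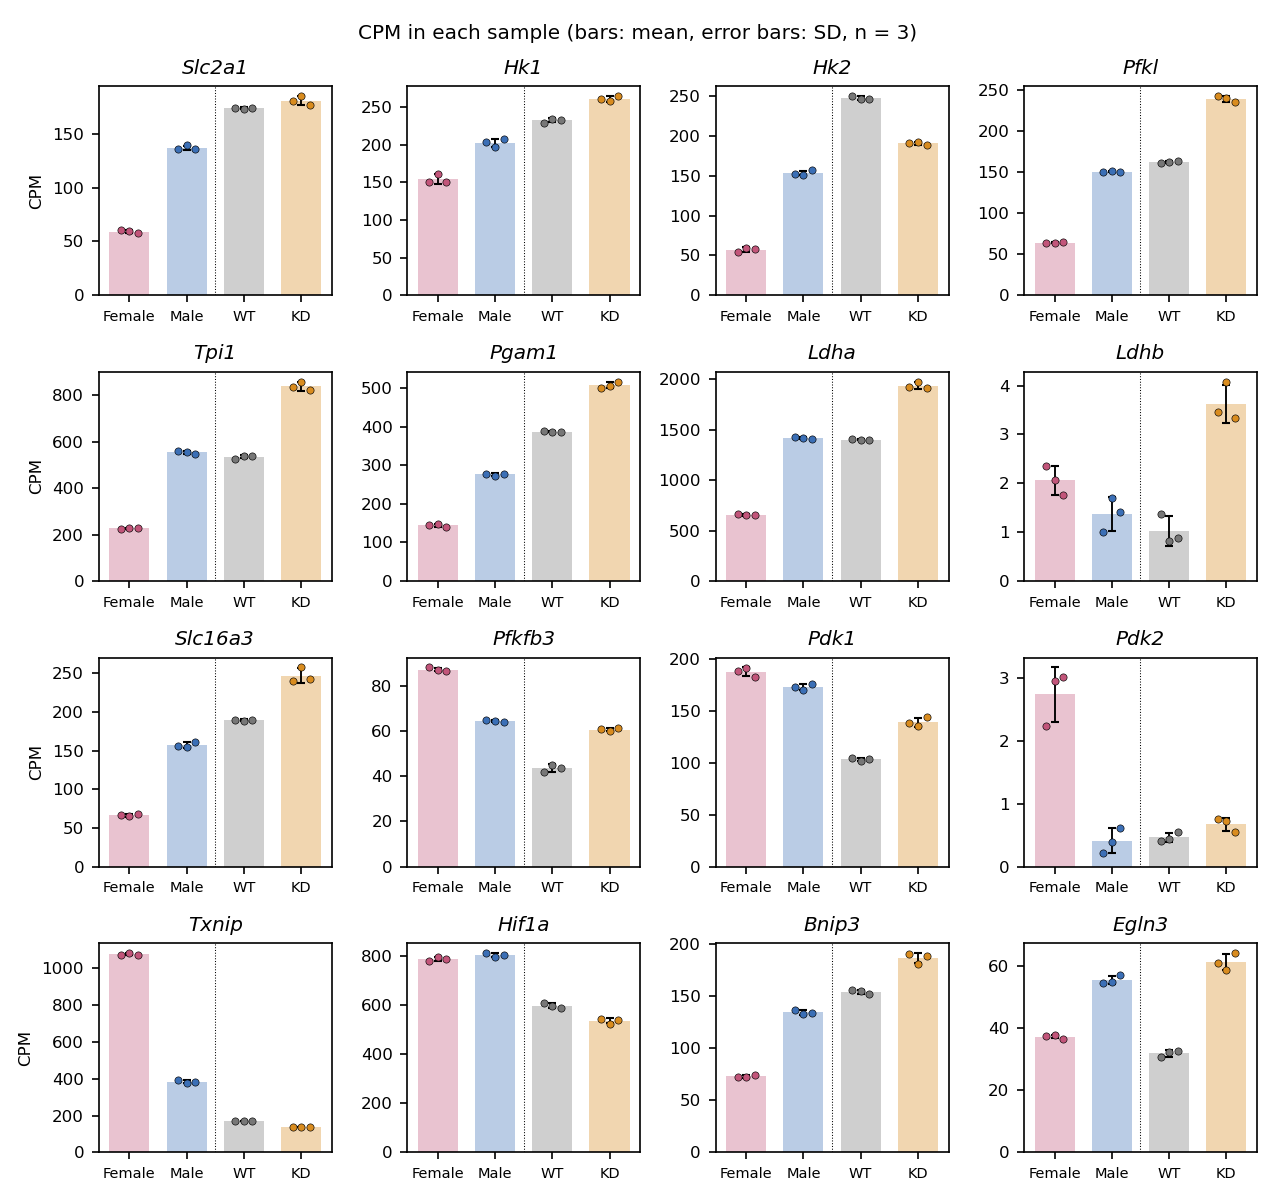
CPM in each of the 12 libraries (points), with bars for group means and error bars for the SD, for 16 members. Ldha, Tpi1, Pgam1 and Slc16a3 are higher in Male than in Female and in KD than in WT, Hk2 is higher in Male but lower in KD, and Txnip is lower in both.

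The plot of CPM by sample shows how close replicates of a group were beside the differences between groups. Replicates of 1 group correlated at 0.9969 to 0.9977 over all genes.

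Lactate leaves the cell through monocarboxylate transporters. Slc16a3 (MCT4, chr11:120948480-120960868), the exporter of highly glycolytic cells, was at 66.1, 64.8 and 67.8 CPM in Female and 155, 155 and 161 CPM in Male (log2 fold change 1.25, SE 0.028, edgeR adjusted p = 2.60e-10). In the second batch it was at 189, 188 and 190.0 CPM in WT and 239.7, 257 and 243 CPM in KD (log2 fold change 0.39, SE 0.028, edgeR adjusted p = 2.73e-06). Male was 2.37-fold above Female and KD 1.31-fold above WT. Slc16a1 (MCT1), which moves lactate in either direction, was at 119.8, 118 and 126 CPM in Female and 192, 187 and 188 CPM in Male (log2 fold change 0.64, SE 0.028, edgeR adjusted p = 2.51e-08). Its difference in the second batch was smaller, with 187, 194 and 193 CPM in WT and 212, 208 and 201 CPM in KD (log2 fold change 0.12, SE 0.026, edgeR adjusted p = 0.00629).

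The mitochondrial pyruvate carrier is made of MPC1 and MPC2; Mpc1 passed in KD only and Mpc2 in neither comparison. Mpc1 was at 23.97, 21.1 and 20.5 CPM in Female and 24.9, 24.4 and 23.1 CPM in Male, which overlap (log2 fold change 0.15, SE 0.062, edgeR adjusted p = 0.0767). Female replicate 1 lay apart from the other Female libraries, and without it Mpc1 was higher in Male at 0.21 (edgeR adjusted p = 0.0108). In KD Mpc1 was lower without overlap, at 22.9, 24.6 and 23.99 CPM in WT and 20.6, 19.8 and 20.4 CPM in KD (log2 fold change -0.23, SE 0.044, edgeR adjusted p = 0.00203). A related locus, Mpc1-ps, held 32.2% to 35.8% of Mpc1's own CPM, and with it added the log2 fold changes were 0.11 and -0.23. Mpc2 was at 21.3, 20.2 and 20.4 CPM in Female and 20.2, 19.6 and 21.5 CPM in Male (log2 fold change -0.012, SE 0.049, edgeR adjusted p = 0.8602). After electroporation it was at 21.8, 22.4 and 22.2 CPM in WT and 21.6, 20.9 and 22.3 CPM in KD (log2 fold change -0.031, SE 0.042, edgeR adjusted p = 0.627). All 4 groups of Mpc2 lay within 19.6 to 22.4 CPM.

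Pyruvate dehydrogenase kinases (PDK) switch off pyruvate oxidation, and their 3 genes moved separately. Pdk1, a HIF target, was at 188, 191 and 183 CPM in Female and 173, 169.7 and 176 CPM in Male (log2 fold change -0.12, SE 0.025, edgeR adjusted p = 0.002696). It was lower in Male, and by less (-0.064) when normalised on protein-coding genes only. In KD Pdk1 was higher, at 105, 102 and 104 CPM in WT and 138, 135 and 144 CPM in KD (log2 fold change 0.43, SE 0.029, edgeR adjusted p = 1.85e-06). Pdk2 was low in all groups, at 2.24, 2.96 and 3.01 CPM in Female and 0.225, 0.389 and 0.622 CPM in Male (log2 fold change -2.73, SE 0.31, edgeR adjusted p = 3.31e-05). That is the largest change downwards of any member in Male against Female, from 21 to 293 counts in a library. In the electroporated cells Pdk2 was at 0.411, 0.446 and 0.546 CPM in WT and 0.7503, 0.718 and 0.549 CPM in KD (log2 fold change 0.52, SE 0.25, edgeR adjusted p = 0.139). Pdk3, which is X-linked, was at 38.2, 38.3 and 36.8 CPM in Female and 47.2, 47.96 and 43.9 CPM in Male (log2 fold change 0.30, SE 0.040, edgeR adjusted p = 1.30e-04). After electroporation it overlapped, at 42.5, 43.6 and 43.2 CPM in WT and 42.4, 41.2 and 43.4 CPM in KD (log2 fold change -0.026, SE 0.036, edgeR adjusted p = 0.637). Pdk1 was thus the member of the family with opposite calls, and Pdk3 the member higher in Male.

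The PFKFB enzymes make and break down the sugar bisphosphate that activates phosphofructokinase. Pfkfb3 (chr2:11471433-11554077), the form with the strongest kinase activity, was at 88.2, 87.1 and 86.5 CPM in Female and 64.96, 64.4 and 63.9 CPM in Male (log2 fold change -0.44, SE 0.023, edgeR adjusted p = 9.72e-08). In the knockdown batch it was at 42.03, 45.1 and 43.9 CPM in WT and 60.8, 59.96 and 61.2 CPM in KD (log2 fold change 0.47, SE 0.036, edgeR adjusted p = 3.94e-06). Pfkfb3 was thus lower in Male and higher in KD, with no overlap in either, the reverse of Hk2. Pfkfb4 went the other way at a level near 2 to 5 CPM, with 4.06, 4.48 and 4.001 CPM in Female and 5.27, 5.31 and 5.34 CPM in Male (log2 fold change 0.34, SE 0.099, edgeR adjusted p = 0.0151). Its values of 3.81, 3.18 and 3.73 CPM in WT and 2.23, 2.75 and 1.28 CPM in KD differed by -0.77 (SE 0.24, edgeR adjusted p = 0.02802). The first call was lost without Female replicate 3, at a similar size (log2 fold change 0.31, adjusted p 0.05004), and the second without WT replicate 1, WT replicate 3 or KD replicate 1 (log2 fold changes -0.73, -0.74 and -0.82, adjusted p up to 0.0836). The Pfkfb4 groups did not overlap in either comparison, at low counts. Pfkfb2, a form first known from heart, was at 10.7, 10.4 and 10.3 CPM in Female and 9.401, 9.095 and 7.597 CPM in Male (log2 fold change -0.27, SE 0.088, edgeR adjusted p = 0.02897). That call was lost in 4 of 6 fits that left out a library (without each Female replicate and without Male replicate 3; adjusted p up to 0.0902). In KD the Pfkfb2 values overlapped, at 8.13, 7.27 and 8.395 CPM in WT and 7.78, 7.59 and 7.61 CPM in KD (log2 fold change -0.050, SE 0.078, edgeR adjusted p = 0.681).

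Txnip, which restrains glucose uptake by driving glucose transporters off the cell surface, had the smallest p of all members in Male against Female. It was at 1072, 1080.0 and 1072 CPM in Female and 392, 378 and 382 CPM in Male (log2 fold change -1.48, SE 0.018, edgeR adjusted p = 6.85e-12). Male libraries held 0.357 of the Female level. In the second batch Txnip was at 169, 169 and 169.6 CPM in WT and 139.8, 137 and 139 CPM in KD (log2 fold change -0.28, SE 0.021, edgeR adjusted p = 3.93e-06), lower in KD with no overlap. Txnip was the only member that passed as lower in both comparisons. An antisense gene, Gm15441, overlaps 19.4% of Txnip's exon bases, and whether the counting used strand is not given in the sources used here.

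In the HIF arm the targets Egln3 and Bnip3 were higher in Male and in KD, while the targets Pdk1 and Pfkfb3, given above, were lower in Male and higher in KD. HIF is known to raise many other members too, and the members did not all go 1 way in KD. Of all 38 identifiers 21 were higher in KD and 6 lower. Among the 6 were Hk2, Slc2a3 and Pfkfb4 (log2 fold changes -0.38, -0.091 and -0.77). Hif1a, the oxygen-regulated subunit of HIF, which is controlled mainly through degradation of its protein, was at 780.0, 793 and 785 CPM in Female and 809.6, 795 and 800.3 CPM in Male (log2 fold change 0.029, SE 0.015, edgeR adjusted p = 0.138). The groups did not overlap, and the difference passed with only genes of mean CPM of at least 1 (log2 fold change 0.046, adjusted p 0.0205) and with protein-coding genes only (log2 fold change 0.083, adjusted p 4.71e-04). In KD Hif1a was lower, at 606, 595 and 588 CPM in WT and 542, 523 and 539.8 CPM in KD (log2 fold change -0.16, SE 0.020, edgeR adjusted p = 1.41e-04). Egln3, a HIF target and a prolyl hydroxylase that marks HIF for degradation, was at 37.4, 37.8 and 36.6 CPM in Female and 54.6, 54.8 and 57.1 CPM in Male (log2 fold change 0.57, SE 0.032, edgeR adjusted p = 1.58e-07). After electroporation it was at 30.6, 32.2 and 32.8 CPM in WT and 61.02, 58.7 and 64.1 CPM in KD (log2 fold change 0.94, SE 0.044, edgeR adjusted p = 1.26e-07). Egln3 was thus 1.92-fold higher in KD, where Hif1a was lower. Bnip3, a HIF target and receptor for the removal of mitochondria, was at 72.2, 72.5 and 74.5 CPM in Female and 137, 133 and 134 CPM in Male (log2 fold change 0.88, SE 0.025, edgeR adjusted p = 1.29e-09). Its second-batch values were 156, 155 and 152 CPM in WT and 190.3, 181 and 188 CPM in KD (log2 fold change 0.27, SE 0.025, edgeR adjusted p = 1.63e-05). Gm45507, an antisense gene, overlaps 22.3% of Bnip3's exon bases.

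The remaining enzymes were low. Eno2, the neuronal enolase, was at 2.93, 2.68 and 2.35 CPM in Female and 0.995, 0.745 and 0.837 CPM in Male (log2 fold change -1.62, SE 0.18, edgeR adjusted p = 2.34e-05). In the electroporated cells it was at 0.457, 0.301 and 0.402 CPM in WT and 0.288, 0.921 and 0.673 CPM in KD, overlapping (log2 fold change 0.71, SE 0.39, edgeR adjusted p = 0.204), and passed without KD replicate 1. Eno2 thus fell in Male against a rise of Eno1. Eno3, the muscle enolase, was at 15.3, 16.8 and 15.97 CPM in Female and 17.5, 17.4 and 15.5 CPM in Male (log2 fold change 0.067, SE 0.063, edgeR adjusted p = 0.418). It was higher in KD, at 12.8, 13.1 and 13.8 CPM in WT and 19.01, 18.4 and 18.6 CPM in KD (log2 fold change 0.50, SE 0.050, edgeR adjusted p = 3.16e-05). Bpgm, a mutase best known from red cells, was at 9.88, 9.56 and 9.52 CPM in Female and 8.802, 6.87 and 8.28 CPM in Male (log2 fold change -0.27, SE 0.096, edgeR adjusted p = 0.0366), and that call was lost in 5 of 6 fits that left out a library, all but the one without Male replicate 1 (adjusted p up to 0.108). After electroporation Bpgm overlapped, at 7.67, 6.64 and 7.66 CPM in WT and 8.75, 7.83 and 7.66 CPM in KD (log2 fold change 0.14, SE 0.089, edgeR adjusted p = 0.268).

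Counts per kb of exon allow steps to be compared with each other. In Female the summed level of a step ran from 10.8 ± 0.112 CPM per kb (SD, n = 3) for Gapdh's own row to 402 ± 4.64 for aldolase. Gapdh's low place leaves out its 43 related loci: its own row was at 44.7 CPM in Female, and at 1312 CPM with them added. How reads were divided among these loci is not given, so the rank of the Gapdh step is not settled here. Hexokinase, the entry step, was at 28.1 ± 1.06 in Female, 49.99 ± 1.11 in Male, 69.2 ± 0.146 in WT and 63.02 ± 0.182 in KD. Glucose uptake lay at 35.8 ± 0.316 and 62.8 ± 0.734 in Female and Male and at 67.1 ± 0.287 and 68.1 ± 1.28 in WT and KD, the last 2 within 1 CPM per kb of each other. Phosphofructokinase was at 50.3 ± 0.233, 85.1 ± 0.462, 65.3 ± 0.288 and 79.3 ± 0.608 in Female, Male, WT and KD. Lactate dehydrogenase was at 199.6 ± 2.81 and 428 ± 2.89 in Female and Male, and at 423 ± 1.35 and 588 ± 10.4 in WT and KD. Aldolase was at 586 ± 3.35 in Male, 509.6 ± 0.946 in WT and 510.0 ± 14.5 in KD. The enzymes together, without their related loci, took 0.596% to 0.606% of all counts in Female, 1.05% to 1.06% in Male, 1.02% to 1.03% in WT and 1.24% to 1.28% in KD. Of the enzyme steps, hexokinase was the one with a lower mean in KD than in WT. The step sums were not tested, and their order between steps can change with the exon length taken for each gene (here the union of annotated exons).

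**Figure D4:**
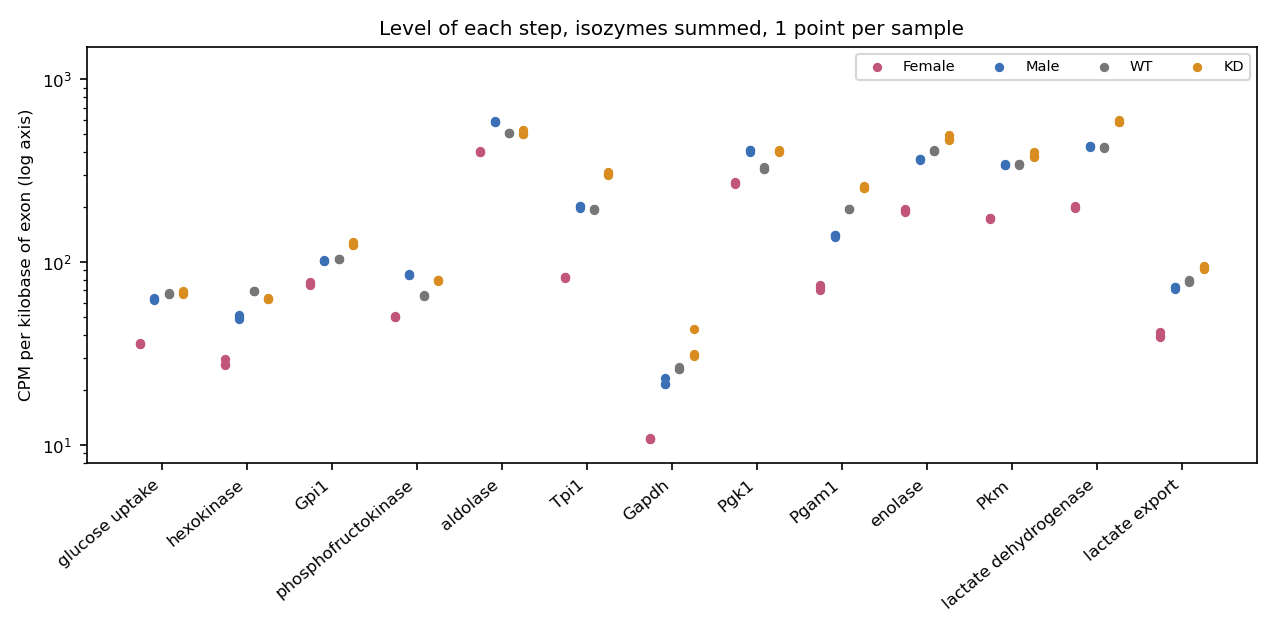
Summed level of each step in CPM per kb of exon (log axis), per library, along the pathway from glucose uptake to lactate export, in the 4 groups. Glucose uptake, hexokinase, phosphofructokinase, lactate export and Gapdh's own row (without its related loci) are low in all groups. Lactate dehydrogenase and aldolase are high in all groups, and Female lies lowest at every step.

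The plot of step levels shows low steps at both ends of the pathway and between them. Glucose uptake and hexokinase were low, as were lactate export and, between these, phosphofructokinase and Gapdh's own row. WT and KD were scaled apart from Female and Male.

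The shares of isozymes within a step were compared between groups. Shares are percent of the step's counts per kb, given as mean ± SD (n = 3). An exact permutation test of 3 against 3 cannot go below 0.1, so no share can pass. Of 20 shares tested (10 families in each comparison), 19 did not overlap and had that smallest p of 0.1 (adjusted 0.105). Single genes did not overlap for 58.3% of all genes in Male against Female and 46.8% in KD against WT. Shares in other gene families were not computed. Slc2a1 took 47.1% ± 1.22 in Female and 62.2% ± 0.329 in Male of the glucose transporters, and in the second batch 73.9% ± 0.156 in WT and 75.8% ± 0.298 in KD. Hk2 took 34.2% ± 0.777 in Female and 51.5% ± 0.314 in Male of the hexokinases, and in the second batch 60.1% ± 0.435 in WT and 50.8% ± 0.628 in KD. The level of this share depends on the lengths used: with the longest transcript of each gene Hk2 was at 22.2% in Female, 36.8% in Male, 45.1% in WT and 36.03% in KD. Pfkl also had its lowest share in Female. It took 18.99% ± 0.131 in Female and 26.5% ± 0.316 in Male of the phosphofructokinases, and in the second batch 37.3% ± 0.122 in WT and 45.2% ± 0.769 in KD. Among the PFKFB genes Pfkfb3 took 83.4% ± 0.326 in Female and 78.8% ± 0.815 in Male, and in the second batch 75.98% ± 2.05 in WT and 84.4% ± 1.501 in KD. Pdk1's share of the 3 PDK genes was 60.7% ± 0.1003 in Female and 54.95% ± 1.5005 in Male, and in the second batch 43.9% ± 0.708 in WT and 51.6% ± 0.266 in KD. Among the regulators, Pfkfb3 and Pdk1 both had a lower share in Male than in Female and a higher one in KD than in WT. Of the lactate transporters Slc16a3 took 31.3% ± 0.261 in Female and 40.9% ± 0.734 in Male, and in the second batch 45.1% ± 0.5796 in WT and 49.7% ± 1.17 in KD. Aldoa, Eno1 and Ldha each took over 94% of their step in all groups, with Ldha's share 99.3% ± 0.0851 in Female and 99.8% ± 0.0528 in Male, and in the second batch 99.8% ± 0.04604 in WT and 99.6% ± 0.0358 in KD. Mpc1's share of the carrier overlapped between Female and Male (exact permutation p = 0.2) and was 79.2% ± 0.402 in WT and 76.8% ± 0.417 in KD. With the longest transcript in place of the union of exons, the differences of Aldoa, Eno1 and Ldha were over 1.5 times smaller, and no share changed direction.

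**Figure D5:**
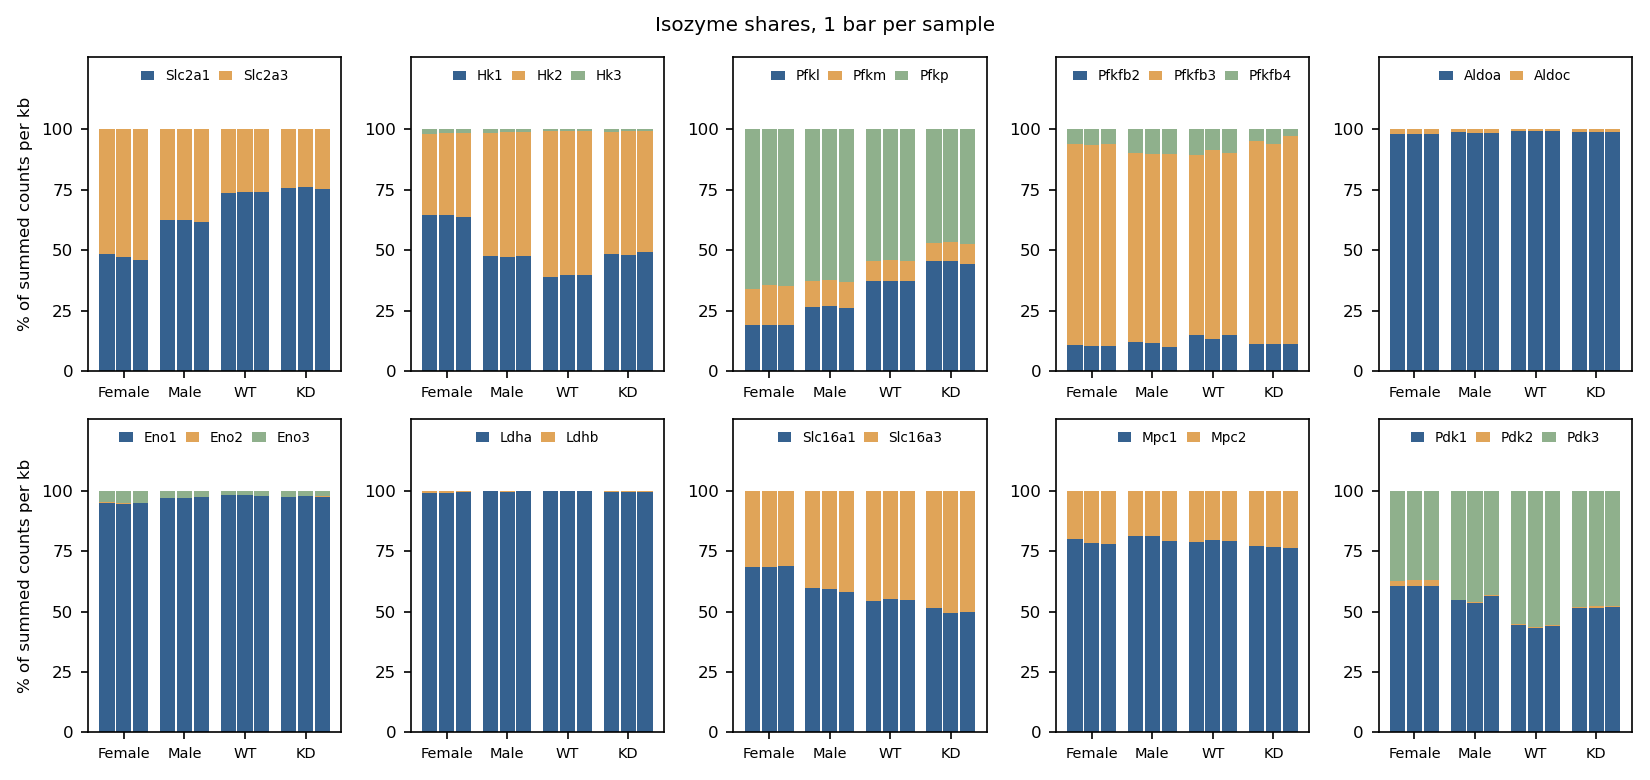
Share of each gene in its step (percent of summed counts per kb, stacked, one bar per library) for the isozyme families in the 4 groups. Hk2's share is highest in WT and lowest in Female, and Slc16a3's is higher in Male than in Female and in KD than in WT.

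The plot of isozyme shares shows that libraries of a group had near-equal shares.

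Reads of a member and of a copy of it can be divided either way by counting. Of the 38 identifiers, 14 share over 10% of their 31-base subsequences with other genes, and 11 have at least 1 related locus (58 loci in all, 43 of them Gapdh's). The highest shares were Bnip3's (57%), Pgk1's (54.7%), Pgam1's (37.1%) and Pkm's (34.7%). Adding the related loci to each member left the direction of each as it was, and moved the size by over 1.5 times for Gapdh in KD. Exons of 15 symbols overlap a gene on the opposite strand.

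Neighbouring pathways were read from lists named in the processing summary, against the same backgrounds. Of all genes tested 23.5% were higher and 26.3% lower in Male, and 16.8% higher and 18.4% lower in KD. The lists here and in the next paragraph are short, and none was tested against these shares. The pentose phosphate pathway, which branches off at glucose 6-phosphate and makes NADPH, had 6 of 8 genes higher and 1 lower in Male (median 0.61). Tkt (0.82, edgeR adjusted p = 2.74e-10), Pgd (0.99, edgeR adjusted p = 3.36e-10) and G6pdx (1.07, edgeR adjusted p = 3.25e-09) had the smallest p, given here with their log2 fold changes. In KD 1 was higher and 5 lower (median -0.14), with the smallest p for Pgd (-0.21, edgeR adjusted p = 3.01e-05), Taldo1 (-0.23, edgeR adjusted p = 3.42e-04) and Tkt (0.11, edgeR adjusted p = 6.46e-04), the latter being the one that was higher. G6pdx and Pgd encode the NADPH-forming dehydrogenases, and Tkt and Taldo1 shuffle sugars back towards glycolysis. The branch was therefore mostly lower in KD where 15 of 22 glycolytic enzyme identifiers were higher; the difference between the lists was not tested. Genes of glycogen metabolism divided into 4 higher and 3 lower of 11 in Male (median -0.027) and 6 higher and 3 lower in KD (median 0.15). Pgm1 (0.47, edgeR adjusted p = 2.43e-07), Gyg (-0.40, edgeR adjusted p = 4.06e-07) and Pygl (-0.66, edgeR adjusted p = 1.81e-05) led in Male, and Gyg (-0.74, edgeR adjusted p = 3.06e-07), Gbe1 (0.57, edgeR adjusted p = 1.42e-05) and Pygm (-0.46, edgeR adjusted p = 1.71e-05) in KD. Gyg primes glycogen, Gbe1 branches it and Pygl and Pygm break it down.

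A list of other HIF-linked genes held targets of HIF, its subunits and its regulators, and had 9 higher and 6 lower of 21 in Male (median 0.081) and 11 higher and 3 lower in KD (median 0.13). The smallest p in Male were those of Ero1l (0.92, edgeR adjusted p = 4.37e-10), Mif (0.89, edgeR adjusted p = 5.11e-10) and Mxi1 (-0.81, edgeR adjusted p = 1.68e-08), and in KD those of Fam162a (0.73, edgeR adjusted p = 4.94e-07), Mif (0.43, edgeR adjusted p = 5.35e-07) and P4ha2 (1.32, edgeR adjusted p = 1.15e-06). Of the genes lower in Male, Arnt is a subunit of HIF and Egln2, Vhl and Hif1an restrain it, and of those lower in KD, Epas1 and Arnt are subunits. Ero1l is an oxidase of the endoplasmic reticulum, Mif a cytokine, Mxi1 an antagonist of MYC and P4ha2 a collagen prolyl hydroxylase. The arm of MondoA, the glucose-sensing factor that drives Txnip, had 1 higher and 3 lower of 6 in Male (median -0.45), led by Hbp1 (-0.77, edgeR adjusted p = 4.64e-08), Mlx (0.62, edgeR adjusted p = 2.61e-06) and Arrdc4 (-1.02, edgeR adjusted p = 1.95e-05), a relative of Txnip. Mlxip encodes MondoA and Mlx its partner. In KD 3 of 6 were lower (median -0.17): Mlxip (-0.17, edgeR adjusted p = 3.67e-04), Hbp1 (-0.37, edgeR adjusted p = 4.07e-04) and Mlx (-0.18, edgeR adjusted p = 0.00671). Of 10 listed genes of gluconeogenic or opposing steps 7 had enough counts to be tested. Fbp1, Fbp2 and Pck1 held 0 to 7 counts in a library and were not tested. Of the 7 tested, 3 were higher and 3 lower in Male (median 0.033), led by Pdp2 (0.79, edgeR adjusted p = 3.73e-08), Pck2 (0.48, edgeR adjusted p = 4.56e-07) and Pdp1 (-0.46, edgeR adjusted p = 1.25e-05), the phosphatases Pdp1 and Pdp2 being the enzymes that undo the PDK reaction. In KD 2 were lower (median -0.097): Pck2 (-0.47, edgeR adjusted p = 2.84e-05) and Pdp1 (-0.24, edgeR adjusted p = 0.0114). Other sugar transporters of immune cells, of which 4 of 6 listed were tested, had 3 called in each comparison (medians -0.36 and -0.031), with opposite signs. They were Slc2a9 (-0.89, edgeR adjusted p = 1.41e-05), Slc2a8 (-0.74, edgeR adjusted p = 4.09e-04) and Slc2a6 (0.30, edgeR adjusted p = 0.0418) in Male, and Slc2a9 (0.67, edgeR adjusted p = 1.95e-04), Slc2a8 (0.46, edgeR adjusted p = 0.00236) and Slc2a6 (-0.53, edgeR adjusted p = 0.0231) in KD. Of 16 listed isozymes and transporters typical of other tissues, 6 had enough counts to be tested in Male against Female. Of these 2 passed (median -0.00036): Gapdhs (0.62, edgeR adjusted p = 0.00702) and Pfkfb1 (0.33, edgeR adjusted p = 0.0366). In KD, of 5 tested (median 0.051), edgeR called 0, with 1 at an unadjusted p under 0.05, DESeq2 called 0 and limma-voom 1.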

How the data were processed

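Libraries were stranded and prepared from total RNA depleted of rRNA (Illumina Ribo-Zero Plus), per the labels' protocols. The deposited values are raw read counts for each gene identifier, in a table of the Female and Male samples and another of the WT and KD samples. The submitters' processing notes name bcl2fastq 2.20.0, HISAT2, StringTie, DESeq2 and the build mm10, without their roles. The annotation, the strand setting and the counting step are not given in the sources used here. Of the 55487 identifiers, 55227 matched GENCODE M21 (GRCm38) and 260 did not. Coordinates are from that annotation.

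Each table was tested alone in R 4.3.3 with edgeR 4.0.16 (filterByExpr, TMM, quasi-likelihood, Benjamini-Hochberg over all genes tested, call at an adjusted p under 0.05). The method was tested on simulated data in which 200 genes were changed. Far more genes were called in these data, and so broad a change was not simulated. SE is the size of the log2 fold change divided by the root of F. CPM uses TMM-scaled totals. Lists, markers and members were chosen with earlier results of these data known. Values by sample are given for the 12 members with the smallest p in each comparison, for members whose calls differ between comparisons and for the regulators; most others are given too. From each other list the 3 called genes with the smallest p are named, with Kdm5d as the check. The lists cover the pentose phosphate pathway, glycogen, opposing steps, HIF-linked genes, the MondoA arm, other sugar transporters, isozymes of other tissues, and markers of cell types, of which 1 list is not reported here.

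Alternatives were other size factors, filters, DESeq2 1.42.0, limma 3.58.1 (voom), protein-coding genes only, all 12 samples in 1 fit, a replicate block, counts divided by 4, related loci added, and each replicate left out. Replicates spread more than independent reads, with a variance over mean of 3.0 to 6.5 at 100 to 300 counts. Promoters are RefSeq windows of GRCm38.p6. Protein sequences were not used here.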

Additional observations from a re-analysis of the deposited data

How the results depend on the processing

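The count of members called kept its direction, and its size within 1.5 times, in each fit that left out 1 library and under each other setting run except the stricter rule of a log2 fold change of at least 1 in size, which left 11 in Male against Female and 1 in KD against WT. The median of the members was 0.42 with protein-coding genes only in Male against Female and 0.23 with upper-quartile factors in KD against WT, and leaving out 1 library moved the latter between 0.20 and 0.24. Members not called in the report changed sign around 0. In Male against Female these were Mpc2 (0.0053 with mean CPM of at least 1, 0.042 with protein-coding genes, -0.050 to 0.0091 when 1 library was left out) and Aldoc (0.032 with protein-coding genes). In KD against WT they were Aldoa (0.024 with upper-quartile factors, 0.0020 with mean CPM of at least 1, 0.0026 with protein-coding genes, -0.032 to 0.0065 when 1 library was left out), Pdk3 (0.0047 with upper-quartile factors) and Hk3 (-0.044 to 0.35 when 1 library was left out). Beside the changes given with the genes, Ldhb in Male against Female lost its call with no filter on low counts (adjusted p 0.0825), with protein-coding genes only (0.0617) and with related loci added (0.0533), and Bpgm with no filter (0.0560) and protein-coding genes only (0.0569). Pfkfb4 lost its call in the fit of all samples in Male against Female (0.191) and with no filter in KD against WT (0.0531). Mpc1 passed in Male against Female with mean CPM of at least 1 (0.0386), protein-coding genes only (0.0115) and counts divided by 4 (0.0486), and the second Aldoa identifier in KD against WT in the fit of all samples (0.0179) and with counts divided by 4 (0.0398). The cause was not tested.

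Same-numbered libraries had deviations that correlated at -0.0098, -0.069 and 0.064 in the first comparison and 0.013, -0.091 and 0.030 in the second. Libraries of different numbers correlated at -0.120 to 0.123 in the first and -0.065 to 0.0545 in the second. With 3 libraries in a group such values cannot show whether replicate numbers pair the samples, and no label says what a shared number means. With the replicate number as a block, 32 members were called in Male against Female (24 higher and 8 lower, median 0.37) and 26 in KD against WT (20 higher and 6 lower, median 0.20), where Ldhb (0.0650) and Pfkm (0.0593) lost and Mpc1 (0.0387) gained a call. Calls that were lost when 1 library was left out were those of Bpgm, Ldhb, Pfkfb2 and Pfkfb4 in Male against Female and of Pfkm and Pfkfb4 in KD against WT. No identity of proteins was computed here.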
